A study of Mus musculus with 6 samples.

Results

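The immunoglobulin genes were represented by 31 probe sets of the 35421 in the table. A probe set is the group of short oligonucleotides whose signals an Affymetrix array summarizes into 1 value. Members were those whose platform annotation named at least 1 heavy chain gene or segment (Ighv, Ighd, Ighj, Ighm, Ighg, Igha or Ighe), kappa gene (Igkv, Igkj or Igkc) or lambda gene (Iglv, Iglj or Iglc). This gave 10 probe sets of the heavy chain locus, 19 of the kappa locus and 2 of the lambda locus. The members carried 30 distinct immunoglobulin symbols, whereas the RefSeq gene table holds 215 heavy, 168 kappa and 12 lambda genes, segments and pseudogenes. Probe sets that the annotation leaves unnamed here may read others and were not analysed here.

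Expression was measured in BCR-ABL1 transformed pre-B cells from C57Bl6 mice aged 4 weeks, labelled wild-type in genotype and BCR-ABL1-driven acute lymphoblastic leukaemia in disease state. BCR-ABL1 is the fusion kinase of Philadelphia chromosome-positive leukaemia. The cells were transduced with pMIG-IKZF1, a retroviral vector that expresses the Ikaros gene, encoding a zinc finger DNA-binding protein, beside green fluorescent protein (GFP), or with pMIG, the same vector without IKZF1. Both groups carried BCR-ABL1 and both were GFP-positive cells sorted 3 days after transduction, with 3 arrays each, called pMIG-IKZF1 1 to 3 and pMIG 1 to 3. The labels state neither the species and isoform of the insert nor whether a group's arrays stem from different cultures or mice, so the p-values rest on a spread that may be technical.

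An antibody consists of heavy chains and light chains. Each light chain is encoded by a variable (V) segment joined in the DNA to a joining (J) segment and spliced to a constant (C) exon. In developing B cells the heavy chain locus is rearranged first, and its mu chain, encoded by Ighm, then appears at the surface with the surrogate light chain made by Vpreb1, Vpreb2 and Igll1. Pre-B cells next open and rearrange the kappa locus and, in some cells, the lambda locus, each of which also gives germline transcripts before it is rearranged. Ikaros binds regulatory elements of several of these loci and is required for B cell development.

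The 8 measured pre-B cell markers, among them Cd79a, Cd79b, Vpreb1, Igll1, Pax5 and Ebf1, all lay above background in both groups. Background was taken as the level below which 95% of 1374 olfactory and vomeronasal receptor probe sets lay, which was 6.23 in pMIG-IKZF1 and 6.11 in pMIG cells on the log2(intensity + 1) scale. Median array intensities were 101.7 to 107.2 on pMIG-IKZF1 and 100.2 to 101.8 on pMIG arrays. Ikzf1 read 13.09, 13.14 and 13.06 on the pMIG-IKZF1 arrays and 11.85, 11.78 and 11.98 on the pMIG arrays, a log2 difference of 1.23 ± 0.07 (SE; limma, Benjamini-Hochberg adjusted p = 0.0045, and 0.062 without pMIG 1). At the threshold of 0.05 for the adjusted p, 415 of all 35421 probe sets (1.17%) were called, 194 (0.548%) as higher and 221 (0.624%) as lower in pMIG-IKZF1 cells.

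Some light chain probe sets were called higher in the cells given IKZF1, and no heavy chain probe set was called in limma. Of 21 light chain probe sets, 6 rose and 15 did not pass, against 0.548% called higher over the table. Both lambda probe sets rose, by 9.89-fold and 10.8-fold on the log2(intensity + 1) scale. In the kappa locus 4 of 19 probe sets rose, led by Igkv6-20 at 9.59-fold, and 0 fell. In the heavy chain locus 0 of 10 passed in limma, where 3 reached an unadjusted p under 0.05, all of them lower, beside 10.0% of the table. The median log2 difference was 3.37 for lambda, 0.58 for kappa and -0.12 for the heavy chain, beside 0.01 over all probe sets. The difference between loci was not itself tested. Fewer cells carrying a transcript and less of it per cell cannot be told apart in bulk RNA.

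**Figure D1:**
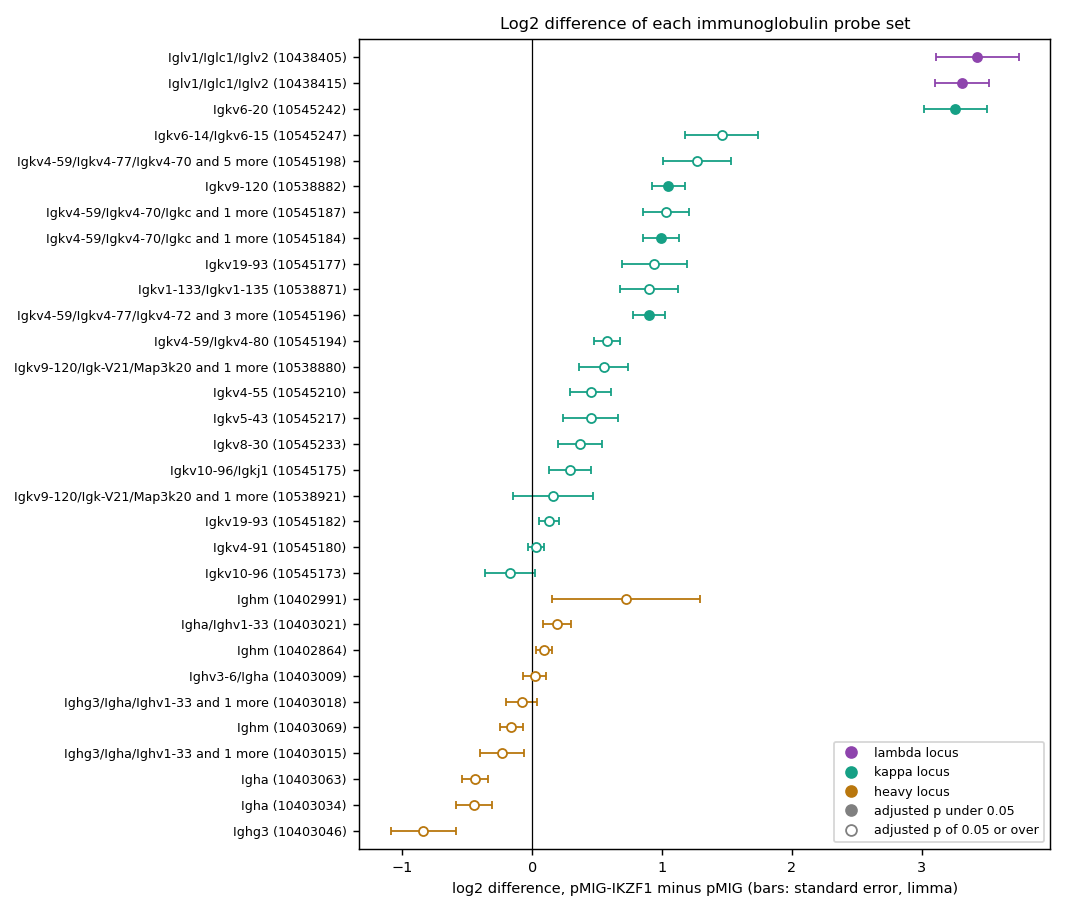
Log2 difference (x axis, pMIG-IKZF1 minus pMIG) of each of the 31 immunoglobulin probe sets (rows, with probe set number), with the standard error of the limma fit as bars and filled points for an adjusted p under 0.05. The 6 filled points are the lambda probe sets and 4 kappa probe sets, and Igkv6-20 lies beside the lambda pair at differences above 3.

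The 2 lambda probe sets are each annotated to Iglv1, Iglv2 and Iglc1, which are V segments and a constant gene of this small locus. They share at least 1 GenBank record and so are not independent readings, and no J segment symbol of the locus is among the members. Probe set 10438405 had intensities of 3879, 2677 and 4660 on the pMIG-IKZF1 arrays and 306.2, 244.3 and 512.0 on the pMIG arrays. On the log2 scale these are 11.92, 11.39 and 12.19, against 8.26, 7.94 and 9.0. The lowest pMIG-IKZF1 array thus lay more than 2 log2 units above the highest pMIG array, and the groups were far apart relative to their spread (SD 0.41 and 0.55, n = 3 each). The log2 difference was 3.43 ± 0.32 (SE; limma adjusted p = 0.017).

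Probe set 10438415 gave 9.81, 9.38 and 10.17 in pMIG-IKZF1 cells and 6.37, 6.39 and 6.68 in pMIG cells. In pMIG cells its mean of 6.48 was close to the background limit of 6.11, so that the fold change may be understated. The log2 difference was 3.31 ± 0.21 (SE; limma adjusted p = 0.0055). By size of the difference the lambda probe sets took ranks 9 and 10 of 35421. Leaving out pMIG 1 ended both calls (adjusted p = 0.062 for 10438415 and 0.13 for 10438405), while the differences stayed at 3.25 and 3.36. Probe set 10438415 passed without any of the other 5 arrays, and 10438405 passed without pMIG 3 only; without pMIG 2 and pMIG-IKZF1 1, 2 and 3 its adjusted p was 0.059, 0.086, 0.063 and 0.072.

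The kappa probe set with the largest rise was 10545242, annotated to the V segment Igkv6-20 alone. Its intensities were 2295, 2669 and 1813 in pMIG-IKZF1 cells and 261.2, 287.9 and 165.2 in pMIG cells, or 11.16, 11.38 and 10.82 against 8.03, 8.17 and 7.38 as log2. All pMIG-IKZF1 arrays lay well above all pMIG arrays. The log2 difference was 3.26 ± 0.24 (SE; limma adjusted p = 0.0099), rank 11 of 35421. The call was lost without pMIG 1 (adjusted p = 0.078), pMIG-IKZF1 1 (0.068) or pMIG-IKZF1 2 (0.062), with differences between 3.02 and 3.42 when any array was left out.

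The other kappa rises were near 2-fold. Probe set 10538882 is annotated to Igkv9-120 alone. Its log2 levels were 7.90, 7.65 and 7.98 in pMIG-IKZF1 cells and 6.80, 6.97 and 6.61 in pMIG cells (2.07-fold). The log2 difference was 1.05 ± 0.13 (SE, limma adjusted p = 0.031). Probe set 10545184, annotated to Igkv4-59, Igkv4-70, Igkv4-80 and the constant gene Igkc, had 7.41, 6.94 and 7.46 in pMIG-IKZF1 cells and 6.26, 6.32 and 6.25 in pMIG cells (1.99-fold; log2 difference 0.99, adjusted p = 0.046). Probe set 10545196, annotated to Igkv4-59, Igkv4-68, Igkv4-72, Igkv4-77, Igkv4-80 and Igkc, had 7.12, 6.77 and 7.22 against 6.07, 6.16 and 6.18 (1.87-fold; 0.90, adjusted p = 0.039). In each of these 3 the lowest pMIG-IKZF1 array was pMIG-IKZF1 2, and it still lay above every pMIG array. These calls were also lost when most single arrays were left out. Over the whole table, 15 to 354 probe sets passed with 1 array left out, against 415 in the full fit. The log2 differences then ran from 0.96 to 1.15 (10538882), 0.90 to 1.16 (10545184) and 0.81 to 1.03 (10545196). Igkv9-120 passed without pMIG 3 (adjusted p = 0.044) and had 0.16, 0.069, 0.11, 0.069 and 0.11 without pMIG 1, pMIG 2 and pMIG-IKZF1 1, 2 and 3. Probe set 10545184 passed without pMIG-IKZF1 2 (0.027) and had 0.20, 0.11, 0.072, 0.13 and 0.12 without pMIG 1, 2 and 3 and pMIG-IKZF1 1 and 3. For 10545196 the same arrays gave 0.035 and then 0.19, 0.11, 0.062, 0.12 and 0.11. Both also missed the threshold after quantile normalization (0.053 and 0.052) and with arrays centred on their medians (0.063 and 0.058).

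Some probe sets annotated to the Igkv4 family share their source. A group of 5 carried the symbols Igkv4-59 and Igkv4-80 together, each shared a GenBank record with at least 4 other members, and 4 of them also carried Igkc. Their log2 differences were 0.58, 0.90, 0.99, 1.03 and 1.27. All 5 had every pMIG-IKZF1 array above every pMIG array, beside 13.1% of the table. The 3 that did not pass had adjusted p of 0.057 (10545194), 0.065 (10545187) and 0.084 (10545198). Probe set 10545198 carries 8 symbols, the most of any member, and had 7.76, 6.90 and 7.91 in pMIG-IKZF1 cells and 6.24, 6.20 and 6.31 in pMIG cells. Its pMIG-IKZF1 arrays spread widely (SD 0.55, n = 3) around a mean far above the tight pMIG arrays (SD 0.06, n = 3). Without pMIG-IKZF1 2 its adjusted p was 0.027. The annotation does not say which part of a transcript a probe set reads, so a probe set that names Igkc need not read the constant exon.

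With replicate number as a block, 8 light chain probe sets rose, against 1.08% of the table called higher in that fit. The additional ones were Igkv6-14/Igkv6-15 (10545247) and Igkv1-133/Igkv1-135 (10538871), with adjusted p of 0.048 and 0.036, against 0.073 and 0.11 without the block. Probe set 10545247 had 6.86, 6.69 and 7.75 in pMIG-IKZF1 cells and 5.50, 5.67 and 5.74, within the background range, in pMIG cells (log2 difference 1.46 ± 0.28, SE). Probe set 10538871 had 7.13, 6.84 and 7.57 against 6.14, 6.12 and 6.58 (0.90 ± 0.22, SE). The groups did not overlap for either.

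**Figure D2:**
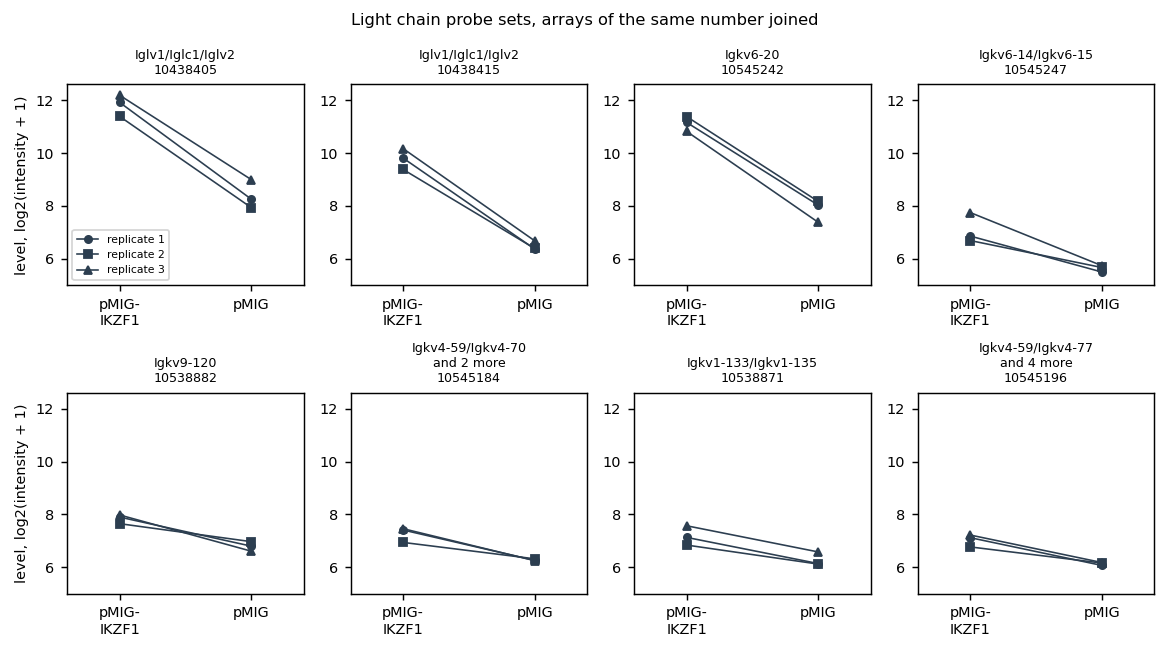
Levels (y axis, log2(intensity + 1)) of the 8 light chain probe sets called with the replicate block, on pMIG-IKZF1 arrays (left of each panel) and pMIG arrays (right), with lines joining arrays of the same replicate number. Each line lies higher at its pMIG-IKZF1 end, and the lines of the lambda probe sets and Igkv6-20 drop by about 3 log2 units or more to the pMIG end.

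The differences within same-numbered arrays were close to each other for the largest risers. They were 3.66, 3.45 and 3.18 for replicates 1, 2 and 3 of lambda probe set 10438405, 3.44, 2.99 and 3.49 for 10438415, and 3.13, 3.21 and 3.45 for Igkv6-20. All 3 pairs were higher in pMIG-IKZF1 for both lambda probe sets, for 13 of 19 kappa probe sets and for 3 of 10 heavy chain probe sets. All 3 pairs were lower for 4 of the 10 heavy chain probe sets and for 0 of the kappa and lambda ones. The share of the whole table with all pairs in 1 direction was not computed, so these counts are description only. The arrays were not ordered alike at the light chain loci. Replicate 3 had the highest lambda level of its group in both groups, whereas Igkv6-20 was lowest on replicate 3 in both groups. In pMIG-IKZF1 cells array 2 was lowest for 14 of 19 kappa probe sets and both lambda probe sets, but was the highest for Igkv6-20.

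Several kappa probe sets that name 1 V segment lay at background. Igkv4-55, Igkv5-43 and Igkv8-30 had log2 differences of 0.45, 0.45 and 0.37 (adjusted p = 0.22, 0.31 and 0.32), and Igkv4-91 had 0.03 (adjusted p = 0.83), with the means of both groups within the background range for all 4. The pMIG-IKZF1 arrays of Igkv8-30 read 5.84, 5.29 and 5.34, against 4.94, 5.16 and 5.28. The probe set shared by Igkv10-96 and the joining segment Igkj1 (10545175) had 7.36, 7.5 and 7.71 against 7.16, 7.53 and 7.01, and the groups overlapped (0.29, adjusted p = 0.38). Over the locus 12 of 19 probe sets had all pMIG-IKZF1 arrays above all pMIG arrays, beside 13.1% of the table, and 0 had them all below.

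Probe sets annotated to the same segment did not always agree. Igkv19-93 had 0.94 ± 0.25 (SE, adjusted p = 0.14) on probe set 10545177, with 7.70, 7.01 and 7.95 against 6.49, 6.49 and 6.84, but 0.13 ± 0.08 (adjusted p = 0.42) on 10545182. The other Igkv10-96 probe set (10545173) had -0.17, at background levels in both groups. The probe set annotated to Igkv9-120 alone had 1.05. Those that add Igkv1-117, Igk-V21 and the kinase gene Map3k20, which lies outside the immunoglobulin loci, had 0.55 (10538880, at background) and 0.16 (10538921). Probe set 10538921 had 9.22, 8.79 and 8.90 in pMIG-IKZF1 cells and 8.85, 9.41 and 8.17 in pMIG cells, with the groups overlapping. Without these 2 shared probe sets the kappa median was 0.90.

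**Figure D3:**
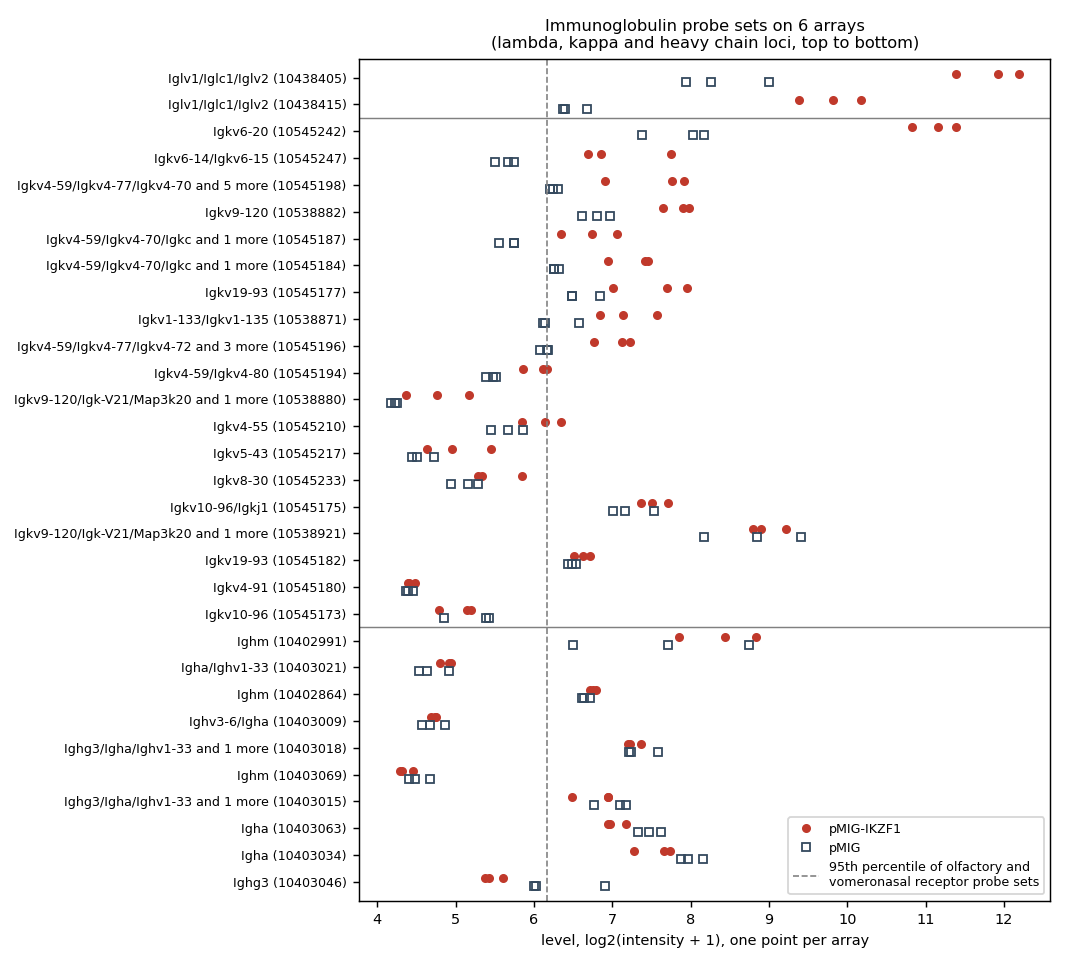
Level (x axis, log2(intensity + 1)) of each immunoglobulin probe set (rows) on every array, pMIG-IKZF1 as filled circles and pMIG as open squares, with the lambda locus at the top, the kappa locus in the middle and the heavy chain locus at the bottom. The dashed line is the background limit over all arrays, 6.16; groups are separate for all lambda and many kappa rows and overlap for 7 of 10 heavy chain rows.

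The order of the V segments along the kappa locus did not sort the differences into a simple trend. Ranks count the 162 Igkv segments and pseudogenes of the RefSeq table outward from the J segments. Igkv6-20 stands at rank 21 and Igkv6-14/Igkv6-15 at ranks 15 and 16, the nearest of those measured, with differences of 3.26 and 1.46. Igkv8-30, Igkv5-43 and Igkv4-55 at ranks 32, 46 and 58 had 0.45 or less. The probe sets shared within the Igkv4 family span ranks 68 to 94, with 1 reaching 109, and had 0.58 to 1.27. At ranks 107 to 115, Igkv4-91 had 0.03, Igkv19-93 had 0.94 and 0.13, and the probe sets naming Igkv10-96 had -0.17 and 0.29. Igkv9-120 at rank 143 and Igkv1-133/Igkv1-135 at ranks 157 and 160, far from the J segments, had 1.05 and 0.90. The shared probe sets that also name Igkv9-120, at ranks 138 to 143, had 0.55 and 0.16. No test was run on this order.

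**Figure D4:**
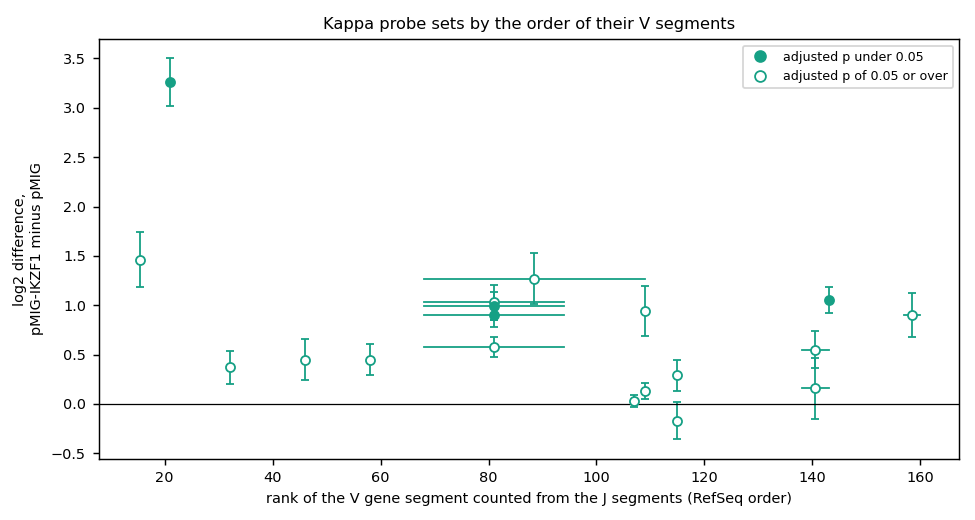
Log2 difference (y axis, pMIG-IKZF1 minus pMIG, bars for the standard error) of the 19 kappa probe sets against the rank of their V segments counted from the J segments (x axis), with horizontal lines for probe sets that span several segments. The highest point is Igkv6-20 at rank 21, and called probe sets (filled) also lie at ranks 68 to 94 and at rank 143.

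Heavy chain probe sets were not called, and those with the lowest unadjusted p were lower in pMIG-IKZF1 cells. Of the 10, 3 had all pMIG-IKZF1 arrays below all pMIG arrays, beside 13.5% of the table. They were Ighg3 (10403046) and both probe sets that name Igha alone (10403034 and 10403063), the constant genes of the IgG3 and IgA heavy chains. Ighg3 had 5.60, 5.37 and 5.43 in pMIG-IKZF1 cells, within the background range, and 6.03, 6.0 and 6.90 in pMIG cells (log2 difference -0.84 ± 0.25, SE; adjusted p = 0.17). Igha had 7.73, 7.28 and 7.66 against 7.97, 7.87 and 8.16 on 10403034 (-0.45, adjusted p = 0.19), and 7.18, 6.95 and 6.97 against 7.47, 7.33 and 7.62 on 10403063 (-0.44, adjusted p = 0.11). The pair shares a GenBank record and its 2 differences were nearly the same. With array weights, a fit in which 5326 probe sets of the table passed, these 2 Igha probe sets were called lower.

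The mu chain gene Ighm is named by 3 probe sets, whose values differed. Probe set 10402991 varied most, with 8.44, 7.85 and 8.83 in pMIG-IKZF1 cells and 7.71, 6.50 and 8.74 in pMIG cells. Its groups overlapped and its SD in pMIG cells was 1.12 (n = 3), so the log2 difference of 0.72 ± 0.57 (SE, adjusted p = 0.53) was within the spread between replicates. It ran from 0.15 without pMIG 2 to 1.27 without pMIG 3. In both groups array 2 was the lowest and array 3 the highest. Probe set 10402864 had 6.75, 6.71 and 6.79 against 6.61, 6.64 and 6.72 (0.09, adjusted p = 0.45), and 10403069 lay at background in both groups (-0.16, adjusted p = 0.39).

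The other 4 heavy chain probe sets combine Igha with V segments, and 2 of them with Ighg3 as well. Those named for Ighg3, Igha, Ighv1-33 and Ighv1-26 had -0.23 (10403015, adjusted p = 0.50) and -0.08 (10403018, adjusted p = 0.73). Ighv3-6 with Igha (10403009) and Ighv1-33 with Igha (10403021) lay at background in both groups, with 0.02 and 0.19. As with Igkc, a constant gene symbol here does not show that a constant exon was read. For comparison, of 53 probe sets of T cell receptor segments, the rearranging loci of T cells, 0 passed in limma, with or without the block, 9 reached an unadjusted p under 0.05, beside 18.3% of the table, and the median log2 difference was 0.10.

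The surrogate light chain genes were not called. Of 6 genes of the surrogate light chain and the signalling chains, 0 passed in limma, and an unadjusted p under 0.05 was found for 3, beside 18.3% of the table. Igll1, which encodes lambda 5, had 13.70, 13.61 and 13.67 in pMIG-IKZF1 cells and 13.85, 13.80 and 13.97 in pMIG cells (log2 difference -0.21, adjusted p = 0.19). Vpreb2 had 10.03, 10.01 and 9.82 against 10.34, 10.46 and 10.19 (-0.38, adjusted p = 0.13). Vpreb1 had -0.01 (adjusted p = 0.97). The pMIG-IKZF1 arrays lay below every pMIG array for Igll1 and Vpreb2 and above every one for the signalling chain gene Cd79b (0.23, adjusted p = 0.17), without passing the test.

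Of 11 measured genes of V(D)J recombination, 0 passed in limma, and 4 were under 0.05 before adjustment, beside 18.3% of the table. Lig4, the gene of DNA ligase IV and named after its values were seen, had the largest difference of the list, with 10.69, 10.81 and 10.63 in pMIG-IKZF1 cells and 9.99, 10.0 and 9.32 in pMIG cells (log2 difference 0.94 ± 0.19, SE; adjusted p = 0.084, and 0.051 with the block). Its groups did not overlap. With the replicate block Xrcc6 passed as higher (log2 difference 0.55, adjusted p = 0.041) and Xrcc5 as lower (-0.55, adjusted p = 0.039), the genes of the Ku70 and Ku80 end-joining proteins. Rag1, a subunit of the recombinase, had 8.83, 8.04 and 9.55 in pMIG-IKZF1 cells and 7.93, 6.52 and 9.70 in pMIG cells (0.76 ± 0.82, SE; adjusted p = 0.65). Array 2 was lowest and array 3 highest in both groups, the order also seen for lambda probe set 10438405 and Ighm probe set 10402991. Rag2 had -0.10 ± 0.91 and Dntt, which adds untemplated bases at the joints, -0.62 ± 0.48 (SE, adjusted p = 0.96 and 0.52). The Dntt difference ran from -1.07 without pMIG 2 to -0.20 without pMIG 3. Whether these array differences bear on the light chain values was not tested.

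Among 25 measured transcription factors of immunoglobulin enhancers and promoters and their inhibitors, 4 rose, 0 fell and 21 did not pass, beside 0.548% of the table called higher and 0.624% called lower. The median log2 difference of the list was 0.16, with 21 differences above 0 and 4 below. Mef2c had every pMIG-IKZF1 array below every pMIG array, without passing the test (-0.35, adjusted p = 0.073). The risers were Ikzf1, Id3, Ets1 and Spib. Ikzf1 is the transduced gene itself, so its call is no result about the other factors, though the counts and median above include it. Id3, an inhibitor of E proteins, had a log2 difference of 0.56 (adjusted p = 0.039). The difference was 0.50 for Ets1 (adjusted p = 0.029) and 0.46 for Spib, an Ets family factor of B cells (adjusted p = 0.037). Ets1 had 11.13, 11.17 and 11.13 in pMIG-IKZF1 cells and 10.70, 10.61 and 10.60 in pMIG cells. The calls of Id3, Ets1 and Spib were lost without any 1 of the 6 arrays, with adjusted p of 0.053 for Ets1 and 0.059 for Id3 and Spib at the lowest, and with arrays centred on their medians for Id3 and Spib (0.063 and 0.053).

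Genes of antibody secretion were not called: of 11 measured, 0 passed in limma, 2 were under 0.05 before adjustment, beside 18.3% of the table, and the median log2 difference was 0.03. Differences of 6 of the 11 lay above 0 and of 5 below. Xbp1 had -0.32 (adjusted p = 0.62) and Sdc1 had -0.01 (adjusted p = 0.99). These 2 genes and the following 3 were chosen after their values were seen. Jchain, which encodes the chain that joins IgM and IgA molecules, had 10.61, 10.38 and 10.29 in pMIG-IKZF1 cells and 9.20, 9.56 and 6.90 in pMIG cells (1.87 ± 0.67, SE; adjusted p = 0.23). The groups did not overlap, and the spread was mostly that of pMIG 3. Without pMIG 3 the difference was 1.05 (adjusted p = 0.052), and without pMIG 2 it was 2.38 (adjusted p = 0.19). Prdm1, the gene of the plasma cell regulator Blimp-1, had 7.38, 6.81 and 7.77 against 6.06, 5.74 and 6.67 (1.17, adjusted p = 0.15, and 0.024 with the block). Among 6 measured genes of class switching and hypermutation 0 passed in limma and 1 was under 0.05 before adjustment, Hmces (2.27, adjusted p = 0.064, and 0.027 with the block).

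Markers of other cells were examined beside the light chain result. Of 7 mature B cell markers 1 rose, beside 0.548% of the table, 6 did not pass, and 4 lay above background in each group. The riser was Ms4a1, which encodes CD20 (log2 difference 4.17, adjusted p = 4.5e-05), with a pMIG mean of 5.34 within the background range. Cd40, a receptor for T cell help, passed as higher with the block only (0.47, adjusted p = 0.047, and 0.073 without it). Cr2, which encodes the complement receptor CD21, had 5.83, 5.81 and 5.92 in pMIG-IKZF1 cells, within the background range, and 7.11, 6.33 and 7.67 in pMIG cells. All pMIG-IKZF1 arrays thus lay below all pMIG arrays for Cr2, without passing the test (-1.18 ± 0.32, SE; adjusted p = 0.14). Summed intensity of the mature B cell markers was 10.72 to 10.92 on the log2 scale on pMIG-IKZF1 arrays and 9.60 to 10.18 on pMIG arrays. Ms4a1 alone had intensities of 749.1, 686.5 and 750.8 on pMIG-IKZF1 arrays and 39.49, 36.95 and 42.09 on pMIG arrays. Most of the higher sum thus came from this gene. The antibody secretion genes summed to 14.05 to 14.08 on pMIG-IKZF1 and 13.89 to 14.17 on pMIG arrays. Of 8 myeloid markers 1 rose, Ly6g (log2 difference 4.47, adjusted p = 0.0028), from a pMIG mean of 5.61 within the background range, and the other 7 lay at background in pMIG-IKZF1 cells. Lyz2 of that list had -0.47 (adjusted p = 0.22) without overlap of the groups. The myeloid list summed to 10.17 to 10.72 on pMIG-IKZF1 and 8.74 to 8.85 on pMIG arrays. Ly6g alone had intensities of 1336, 1220 and 780.4 on pMIG-IKZF1 arrays and 49.8, 53.11 and 41.36 on pMIG arrays. The higher myeloid sum thus came from Ly6g and not from the list as a whole. Of the 7 T cell, 3 erythroid, 5 NK cell and 5 stromal markers measured 0 passed in limma, with 1, 0, 1 and 1 under 0.05 before adjustment, beside 18.3% of the table. The T cell markers summed to 9.61 to 10.13 on pMIG-IKZF1 and 9.03 to 10.73 on pMIG arrays. Lat was the brightest of them on every array, with intensities of 517.8, 625.5 and 385.4 on pMIG-IKZF1 and 1079, 1325 and 161.4 on pMIG arrays. Within the background range lay 4 of the 7 in pMIG-IKZF1 and 5 in pMIG cells. The erythroid markers gave 7.30 to 7.45 on pMIG-IKZF1 and 7.28 to 7.45 on pMIG arrays, and the NK cell markers 7.76 to 7.80 on pMIG-IKZF1 and 7.73 to 7.80 on pMIG arrays. The stromal markers gave 9.13 to 9.46 on pMIG-IKZF1 and 8.92 to 9.14 on pMIG arrays. The part of the mature B cell markers in the light chain result was not tested.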

How the data were processed

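The deposited values are probe set intensities made by the authors with RMA (robust multi-array average), as the submitters' processing notes say; its version and settings are not given in the sources used. They run from 11.1 to 23523, so they were read as linear although RMA is usually given as log2. Quantile normalization, a part of RMA as a method, can lessen a shift shared by most genes. Symbols came from the platform's gene table, under which 21789 probe sets have 1 symbol, 1621 several and 12011 are unnamed here.

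From these values log2(intensity + 1) was computed. All 35421 probe sets were fitted in R 4.3.3 by lmFit and eBayes of limma 3.58.1 (2-sided, group as the only term), with Benjamini-Hochberg adjustment over all of them and a threshold of 0.05; the fit was tested on simulated data. No filter on level was set. For the other gene lists, the brightest probe set of 1 symbol stood for a gene. A 2-sided exact permutation test of 3 arrays against 3 cannot go below p = 0.1, the value that Igkv6-20 and both lambda probe sets reached. Precision is limited by the number of arrays. The members, gene lists and tests were chosen with earlier results of these data known. The rule for named probe sets took all with a constant gene symbol, the 8 largest called changes and the 4 brightest of each locus; the other members are given as well. Of the other lists it took members past the threshold, and further genes of these lists were named after their values were seen. No sequence of a member was in the tables used here, and positions are not given because the genome build of the arrays is not stated in the sources.

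Deviations from the group means of same-numbered arrays correlated across probe sets with r = 0.19, 0.48 and 0.49, those of differently numbered arrays with r of 0.01 or lower. The replicate numbers of the titles were therefore taken as pairs in a second fit with a block, though the labels do not say what they mark. Deviations cancel out within a group, so the low values of differently numbered arrays are no separate evidence. P-values given without mention of the block come from fits that do not use the pairs. The fit with the block is given where it changes a call. Alternatives were the block, leaving out each array, a pseudocount of 16, quantile normalization, centring on medians, brighter probe sets only, probe sets with a symbol only, an intensity trend in the prior, array weights and members with immunoglobulin symbols only.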

Additional observations from a re-analysis of the deposited data

How the results depend on the processing

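All 3 of the largest risers (both lambda probe sets and Igkv6-20) kept their direction under each setting run, with log2 differences from 2.99 to 3.73. Calls depended on the number tested and on single arrays. The count over the table was 415, 850 with the replicate block, 5326 with array weights and 15 to 354 when 1 array was left out. It was 476 after quantile normalization, 349 with arrays centred on their medians and 475 among probe sets with a symbol. Kappa probe sets called were 4, 2 after quantile normalization, 2 with arrays centred on their medians, 6 among probe sets with a symbol, 12 with array weights and 0 to 3 with 1 array left out. Lambda calls were 2 and, with 1 array left out, 0 to 2. Heavy chain calls were 0, also with each array left out, and 2, both lower, with array weights. The replicate block changed the call of 2 kappa probe sets, Igkv6-14/Igkv6-15 and Igkv1-133/Igkv1-135, and of no other immunoglobulin probe set. The kappa median of 0.58 was 0.97 among brighter probe sets and 0.90 among probe sets with immunoglobulin symbols only, which test fewer members, and 0.55 to 0.75 without 1 array; the lambda median ran from 3.18 to 3.58 and the heavy chain median from -0.17 to -0.06. Signs turned in 15 of 661 single values, all uncalled in both fits: Ighv3-6/Igha without pMIG 2 (-0.04) and centred (-0.02), probe set 10403018 without pMIG 3 (0.04) and with array weights (0.07), 10538921 without pMIG 3 (-0.16), Igkv4-91 centred (-0.02) and with array weights (-0.03), Rag1 without pMIG 2 (-0.01), Rag2 without pMIG 3 (0.81), without pMIG-IKZF1 2 (0.39) and with array weights (0.50), and Vpreb1 without pMIG 1 (0.01), pMIG 3 (0.01) or pMIG-IKZF1 3 (0.04) and after quantile normalization (0.01). Without 1 array in turn these ran from -0.04 to 0.10 (Ighv3-6/Igha), -0.15 to 0.04 (10403018), -0.16 to 0.46 (10538921), -0.01 to 1.58 (Rag1), -0.90 to 0.81 (Rag2) and up to 0.04 (Vpreb1). The cause was not tested. Levels within the background range, those of 11 members in pMIG-IKZF1 and 12 in pMIG cells, limit what their differences can show.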
